A study of Mus musculus with 4 samples.

Results

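The genes described here encode enzymes of cholesterol synthesis in mouse fibroblasts: Fdps (farnesyl diphosphate synthase), Fdft1 (squalene synthase), Sqle (squalene epoxidase) and Ebp (a sterol isomerase also known as emopamil binding protein). They were chosen by name, as all probe sets on 2 array types whose single gene symbol in the platform annotation is 1 of these 4. The rule found 3 probe sets, 1 each for Fdft1 and Sqle on the first array type and 1 for Ebp on the type marked MB in the sample titles, out of 13057 probe sets and 6137 named genes in all. No probe set carried Fdps as its single symbol, so Fdps has no value here. All 3 names end in _s_at (D29016_s_at for Fdft1, D42048_s_at for Sqle and X97755_s_at for Ebp), which in the Affymetrix scheme marks probes that can match more than 1 transcript. No receptor of the uptake arm is among the 4 genes, so uptake was followed through a wider list of sterol genes given further on.

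The cells were a stable line of NIH3T3, an immortalised mouse fibroblast line, carrying wild-type PKR behind a promoter that tetracycline represses. PKR, encoded by Eif2ak2, is a kinase that senses double-stranded RNA and slows protein synthesis by phosphorylating eIF2 alpha. In 1 condition the cells grew in DMEM with 5% fetal calf serum and 1 µg/ml tetracycline, which keeps the transgene off. In the other, tetracycline was withdrawn for 5 h to switch the transgene on, and the labels give no serum content for these cultures. Both conditions share the cell line and the transgene, and the groups include no line without the transgene, so the effect of PKR, of losing the drug and of any difference in medium cannot be told apart. The species of the PKR sequence and the number of clones behind the line are not stated. Total RNA was hybridised to 4 arrays, 1 per condition and type. The 2 types carry different probe sets, so their arrays are not replicates, and every difference below compares a single pair of arrays without a replicate check.

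Cholesterol is built from acetyl-CoA through mevalonate to isoprenoid diphosphates. Farnesyl diphosphate synthase makes the last precursor shared with protein prenylation, ubiquinone and dolichol. Squalene synthase then joins farnesyl units to squalene, squalene epoxidase oxidises squalene, lanosterol synthase closes the ring, and a series of reductases, demethylases and isomerases, Ebp among them, turns lanosterol into cholesterol. SREBP transcription factors, above all SREBP-2, switch these genes on when membrane sterol is low, binding sterol regulatory elements beside the CCAAT-binding factor NF-Y and the GC-box factor Sp1. In cultured fibroblasts the same factors respond to the lipoproteins that serum supplies.

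The promoter table held a sequence for 16 of 22 genes of the synthesis pathway, 19 promoters in all, and for 1 of the 4 chosen genes, Ebp. Those printed are of Ebp, which had the largest difference of the chosen genes, of Idi1, an isomerase of the isoprenoid stage with the largest decrease among measured pathway genes of the first array type, and of Hmgcs1, the HMG-CoA synthase at the start of the mevalonate stage, which holds the sterol regulatory element searched for. They run from 250 bases before to 50 bases after the annotated start, from RefSeq on GRCm38.p6, at chrX:8193463-8193762 (minus strand) for Ebp, chr13:8885356-8885655 (plus strand) for Idi1 and chr13:119690101-119690400 (plus strand) for Hmgcs1. Capitals mark 3 exact motifs on either strand, the sterol regulatory element core TCACCCCAC, the CCAAT box CCAAT and the GC box GGGCGG, none of which overlap in these promoters.
Ebp: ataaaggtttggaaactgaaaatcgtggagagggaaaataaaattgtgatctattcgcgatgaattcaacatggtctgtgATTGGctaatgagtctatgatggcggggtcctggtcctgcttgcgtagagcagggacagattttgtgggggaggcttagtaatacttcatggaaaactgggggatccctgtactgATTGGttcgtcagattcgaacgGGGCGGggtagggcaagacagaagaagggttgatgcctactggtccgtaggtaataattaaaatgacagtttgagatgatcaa
Idi1: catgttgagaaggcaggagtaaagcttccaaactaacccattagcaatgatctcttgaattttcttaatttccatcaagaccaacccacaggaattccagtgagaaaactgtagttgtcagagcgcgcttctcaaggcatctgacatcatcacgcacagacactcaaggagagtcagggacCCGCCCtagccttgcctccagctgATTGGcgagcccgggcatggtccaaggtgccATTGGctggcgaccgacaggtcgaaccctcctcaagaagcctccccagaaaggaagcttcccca
Hmgcs1: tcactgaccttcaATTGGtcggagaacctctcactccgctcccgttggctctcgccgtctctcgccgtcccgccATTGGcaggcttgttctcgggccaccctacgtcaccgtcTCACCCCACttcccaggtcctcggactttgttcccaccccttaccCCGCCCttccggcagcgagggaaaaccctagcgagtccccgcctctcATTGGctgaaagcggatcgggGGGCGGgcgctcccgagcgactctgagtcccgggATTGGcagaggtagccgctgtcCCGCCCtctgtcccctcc
The Ebp promoter holds 2 CCAAT boxes, read on the reverse strand at bases -170 to -166 and -55 to -51 before the start, and 1 GC box at -33 to -28. Idi1 also has 2 CCAAT boxes and 1 GC box. Hmgcs1 has 4 CCAAT boxes, 3 GC boxes and, at -137 to -129, the exact sterol element. That element was found in 1 of the 19 pathway promoters and in 0.551% of all 32851 promoters of the same length. A CCAAT box was present in 15 of the 19, against 37.4% of all promoters, and a GC box in 16 of the 19, against 35.7%. These letters describe the promoters alone, and an element with other letters would not be found by an exact search.

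The 3 chosen genes gave different readings, each on 1 pair of arrays, and whether they moved together was not tested. Ebp was 2.46-fold lower after withdrawal, Fdft1 was 1.43-fold lower, and Sqle read nearly the same in both conditions. A probe set is called measured here when both of its arrays exceeded a floor set at percentile 25 of all intensities of its array type (130 for the first type, 80.0 for MB). All 3 were measured, and all 3 also exceeded on both arrays a stricter control floor (281.5 and 340.4). That floor was set at percentile 95 of the 39 control probe sets whose names lack the mouse tag Mur/. The log2 changes below are withdrawn over tetracycline, on deposited linear intensities with no pseudocount.

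Fdft1 makes the first product committed to sterols. Its intensity was 903.9 with tetracycline and 631.5 after withdrawal, a log2 change of -0.52. The withdrawn array was thus the lower of the pair. Among the 200 measured probe sets nearest in level on that array type, the median change was 0.039 and the robust SD 0.43, a spread that mixes probe noise with real differences and cannot stand in for replicates. The Fdft1 change lay -1.28 such spreads from that median, and 19 of the 200 neighbours had a lower value.

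Sqle, an oxygen-dependent and rate-limiting step after squalene, had an intensity of 916.4 with tetracycline and 925.8 after withdrawal. The change was 0.015 on the log2 scale, where neighbours had a spread of 0.46 and 112 of 200 had a lower value. Its sign turned under other scalings of the arrays (-0.0075 with quantile normalization and -0.017 with the trend on level removed), so no direction is given. Sqle and Fdft1 were measured on the same pair of arrays, at adjoining steps of the pathway.

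Ebp acts late in the pathway, shifting a double bond in the sterol ring. Its intensity was 1562 with tetracycline and 634.2 after withdrawal, a log2 change of -1.30. The tetracycline array was clearly the brighter of the pair, and the dimmer value still lay above the control floor. The median of its 200 neighbours was 0.065 with a spread of 0.40, and 2 of them had a lower value than Ebp, which lay -3.39 spreads from that median. On the whole MB type 4.01% of measured probe sets had a lower value than Ebp.

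At least 2-fold lower was thus 1 of 3 member probe sets, and none was 2-fold higher. Among all measured probe sets of the first type, 4.02% were at least 2-fold lower and 4.36% at least 2-fold higher. For the MB type these shares were 6.65% and 8.46%. Above the control floor, where Ebp also lay, 21 of 2738 probe sets on the MB type, or 0.767%, were 2-fold lower. With 3 probe sets, of which Ebp alone was on the MB type, the difference between Ebp and its companions rests on different pairs of arrays and was not tested.

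For each chosen gene, the named probe sets of its array type with the most similar pair of intensities were listed, by Euclidean distance over 2 arrays on the log2 scale. Nearest to Ebp were Ptp4a2, a protein tyrosine phosphatase (1717 to 660.6, log2 change -1.38, distance 0.15), and Camp, the cathelicidin gene (1289.3 to 688.8, -0.90, distance 0.30). Nearest to Fdft1 were Wnt1 (889.6 to 627.5, distance 0.025) and Zbtb14 (909.5 to 657.8, distance 0.060). Nearest to Sqle were Adm, the adrenomedullin gene (923.9 to 917.1, distance 0.018), and 4930453N24Rik (896.4 to 930.5, distance 0.033). None of these 6 genes is in the sterol and lipid lists used here, and likeness over 2 arrays says nothing beyond these 2 values.

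The rest of the pathway was read from a list of 22 synthesis genes, which includes the 4. A probe set was present for 10 of them and 9 were measured. A gene with several probe sets took the median of those measured. Of the 9, 6 were lower after withdrawal to any extent, against 50.4% of the 4507 measured named genes, and 3 were higher, against 49.6%. These counts include Sqle, whose sign turned with the scaling, and Hmgcs1 and Lss, whose probe sets disagreed in sign. With only the brightest probe set per gene, 7 were lower. Ebp alone was past 2-fold lower, against 4.22% of all genes, and none was past 2-fold higher, against 5.26%. The median log2 change was -0.089, against -0.0037 over all genes. It moved to -0.31 with the control floor, with the main floor doubled and with only the brightest probe set per gene, and to -0.29 with no floor. Without the 3 chosen genes, 4 of 6 were lower and the median was -0.058.

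The measured genes are given in pathway order. Acat1, the mitochondrial acetoacetyl-CoA thiolase, read 2100.2 with tetracycline and 1501.6 after withdrawal (-0.48). As a mitochondrial enzyme it may not serve this pathway, yet it is counted among the measured and lower genes of the list. Hmgcs1 read 1021.2 and 826 on its brighter probe set (-0.31) but 233.4 and 255.1 on the dimmer one (0.13), which lay under the control floor. Idi1 read 882.6 and 569.8 (-0.63), with 18 of its 200 neighbours lower, much as for Fdft1. Before Idi1 in the pathway, Mvd, the mevalonate diphosphate decarboxylase, read 100 and 59.9, under the floor on both arrays. No difference among these measured genes reached 2-fold.

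From squalene onwards the directions differed. Lss, the lanosterol synthase, read 632.3 and 806.5 on 1 probe set (0.35) and 947.5 and 922.6 on the other (-0.038), so its probe sets disagreed in sign. Lbr, a sterol reductase that is also the lamin B receptor of the nuclear envelope, was higher, from 1432.9 to 2253.3 (0.65), and 189 of its 200 neighbours had a lower value. Dhcr7, the reductase that makes cholesterol from its last precursor, read nearly the same in both conditions, at 304.3 and 298.5 (-0.028). Both values lay only a little above the control floor, and its neighbours had a wide spread of 0.78. Of the 4 measured genes after Sqle, Ebp alone was lower by over 2-fold. Genes of the pathway named here other than the chosen genes, Acat1 and Lbr were picked after their values were seen.

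**Figure D1:**
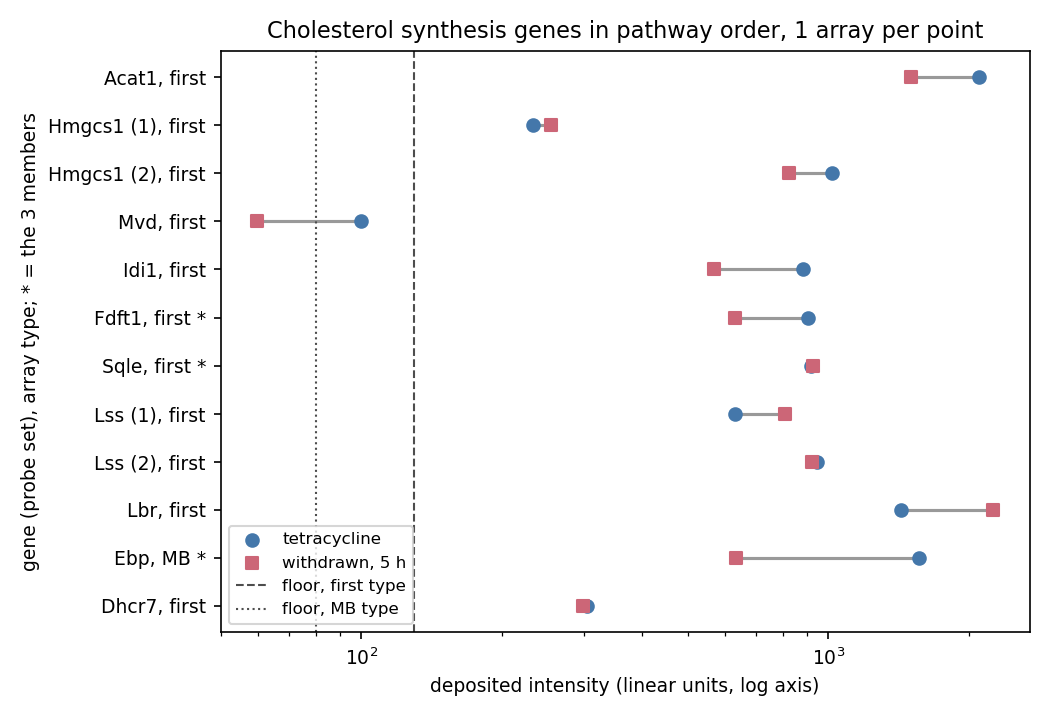
Deposited intensity (log axis) of the 12 probe sets of cholesterol synthesis genes in pathway order, with tetracycline (circles) and after withdrawal (squares), 1 array per point and no error bars; vertical lines mark the floors of the array types. Ebp has the widest gap on the log axis (1562 to 634.2), Sqle nearly none (916.4 to 925.8), and Lbr moves the other way (1432.9 to 2253.3).

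Uptake, transport and storage genes were more often lower than higher. Of 21 listed genes, 12 had a probe set and 9 were measured, with 7 lower, 2 higher and a median log2 change of -0.33. The lower genes include Npc1, whose probe sets disagreed in sign. With the control floor 7 genes were measured and 5 of them were lower. With quantile normalization or the level trend removed, 8 of the 9 were lower. Over all genes 50.4% were lower and the median was -0.0037. Past 2-fold lower were 2 of 9, Scarb1 and Abca1, against 4.22% of all genes, and none was past 2-fold higher. This count was 1 with the control floor and with the main floor lowered (64.9 for the first type, 40.0 for MB) or raised (259 and 160). Scarb1 encodes the HDL receptor SR-BI and read 929.4 with tetracycline and 359.7 after withdrawal, a log2 change of -1.37. Of its 200 neighbours on the first array type, 4 had a lower value, with a spread of 0.53. Both Scarb1 values exceeded the control floor, above which 1.29% of the probe sets of that type were 2-fold lower.

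Abca1, the transporter that loads cholesterol onto apolipoprotein A-I, read 330.5 and 146.5 on the first type (-1.17). Its withdrawn value lay under the control floor, which leaves a bound of at least 1.17-fold lower against that floor, and its MB probe set was under the floor on both arrays (68.4 and 59.5). The Abca1 difference thus rests on 1 dim probe set, unlike that of Scarb1. Lrp1, an endocytic receptor for lipoprotein remnants, read 5417.8 and 3406 (-0.67), and 1 of its 200 neighbours was lower, with a spread of 0.26. Lrp1 was bright on both arrays, and its difference was large for its level though under 2-fold. Stard3, a sterol transfer protein of late endosomes, read 1135.2 and 1222.7 (0.11). The 2 probe sets of Npc1, the lysosomal cholesterol exporter, disagreed, with 595.3 and 305.8 on 1 (-0.96) and 390.3 and 446.5 on the other (0.19).

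Dim receptors gave bounds only, in both directions. Vldlr, the VLDL receptor, read 239.4 and 7.9 on 1 probe set and 139.8 and 85 on another, at least 1.85-fold and 1.08-fold lower against the floor. All 4 of these values lay under the control floor. Apoe, the apolipoprotein ligand of these receptors, read 199.4 and 62.4 on the first type and 63.5 and 60.7 on the MB type, all under the control floor too. Cd36, a scavenger receptor and fatty acid carrier, read 10.9 and 98.5 on the MB type, at least 1.23-fold higher against the floor, and 32.7 and 28.8 on the first type, under the floor. The Cd36 values, too, all lay under the control floor. Npc1, Vldlr, Apoe and Cd36 were picked after their values were seen.

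Sterol regulators differed little. Of 11 listed genes 6 had a probe set and 5 were measured, with 1 lower, 4 higher, none past 2-fold and a median of 0.086. With quantile normalization or the level trend removed, 3 were lower and the median turned to -0.0020 and -0.017. Mbtps1, the protease that makes the first cut in SREBP precursors, gave 0.12 and 0.061 on 2 probe sets (1530.1 to 1658.4 and 2460.2 to 2566.7). Nfyc, a subunit of the CCAAT-binding factor NF-Y, read 856.6 and 1086.8 (0.34). Its partners Nfya (642.3 to 681.9) and Nfyb (755 to 704.3), picked after their values were seen, moved by 0.086 and -0.10. All these values lie inside the spread of probe sets of similar level. Insig2, which holds SREBP precursors in the endoplasmic reticulum, read 44.1 and 264.5, at least 3.31-fold higher against the floor but under the control floor on both arrays. No probe set was named Srebf1 or Srebf2, the SREBP genes themselves.

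Fatty acid synthesis genes, which SREBP-1 controls, were measured for 7 of 18 listed. All 7 were lower, by log2 changes from -0.79 to -0.080, with a median of -0.41 and none past 2-fold. Over all genes 50.4% were lower, 4.22% were past 2-fold lower and the median was -0.0037. All 7 were lower under each of the 4 other scalings too, but these rework the same arrays and give no replicate check. Scd2, a stearoyl-CoA desaturase, read 3761.4 and 2821.4 (-0.41). Acly, which makes cytosolic acetyl-CoA from citrate, was nearly level on both array types, with 3312.4 and 3222.2 on the first (-0.040) and 1154.1 and 1058.2 on the MB type (-0.13). The 3 genes picked after their values were seen had the larger differences: the malic enzyme Me1 (1045.9 to 604.5, -0.79), the fatty acid synthase Fasn (3329.4 to 2164, -0.62) and the citrate carrier Slc25a1 (3423.4 to 2514.1, -0.45). Gpam, which starts glycerolipid synthesis, went the other way from below the floor (114.9 to 533), at least 4.11-fold higher against the floor and at least 1.89-fold against the control floor.

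The branches that use farnesyl diphosphate outside sterols had 7 of 15 listed genes measured, with 6 lower, 1 higher, none past 2-fold and a median of -0.067, against 50.4% lower and -0.0037 over all genes. With quantile normalization or the level trend removed, 5 of the 7 were lower, with medians of -0.15 and -0.16. The list holds Hccs (668 to 644.4), which attaches haem to cytochrome c and does not belong to these branches by function. Without it 5 of 6 genes were lower and the median was -0.14. Fnta, the shared subunit of the protein prenyltransferases, read 1375.5 and 1089.9 (-0.34). Rabggtb, a subunit of the Rab prenyltransferase, read 2976.2 and 4504.4 (0.60), while a dim second probe set read 135.1 and 41.4, under the floor after withdrawal. Ggps1, picked after its values were seen, uses the product of Fdps to make geranylgeranyl diphosphate and read 862.7 and 682.4 (-0.34).

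**Figure D2:**
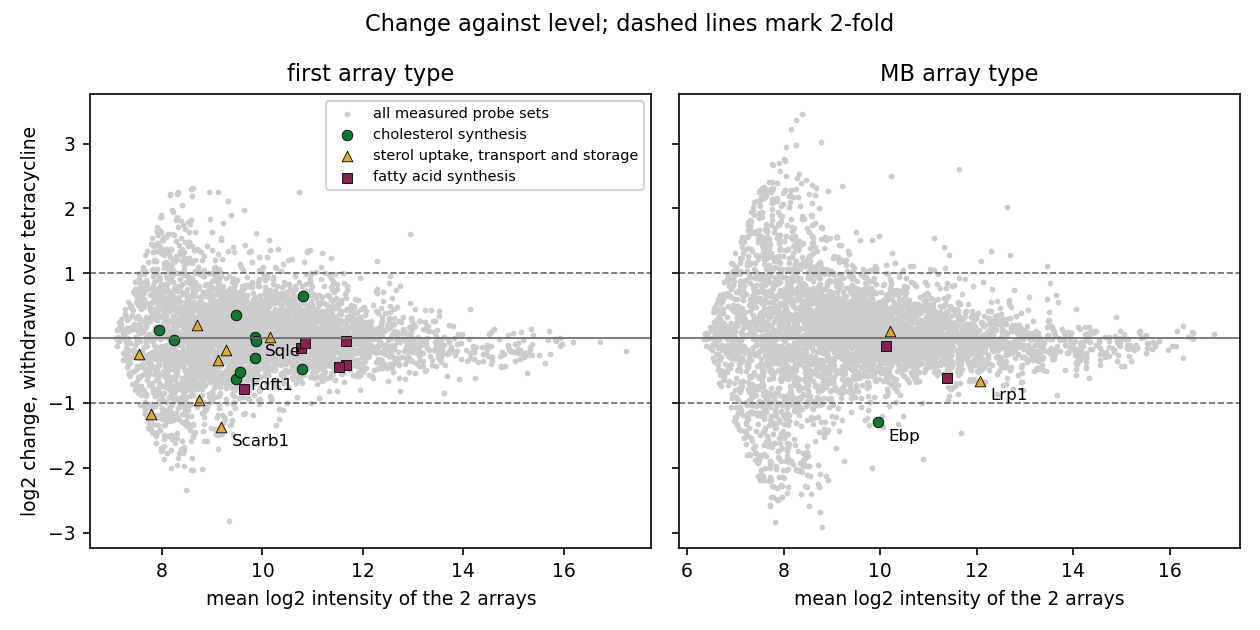
Log2 change, withdrawn over tetracycline, against the mean log2 intensity of the 2 arrays for every measured probe set (grey) of each array type, with probe sets of 3 gene lists in colour and dashed lines at 2-fold. Ebp (-1.30) and Scarb1 (-1.37) lie below the lower line at levels where few grey points do, Fdft1 (-0.52) lies within the cloud and Sqle (0.015) at its centre.

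**Figure D3:**
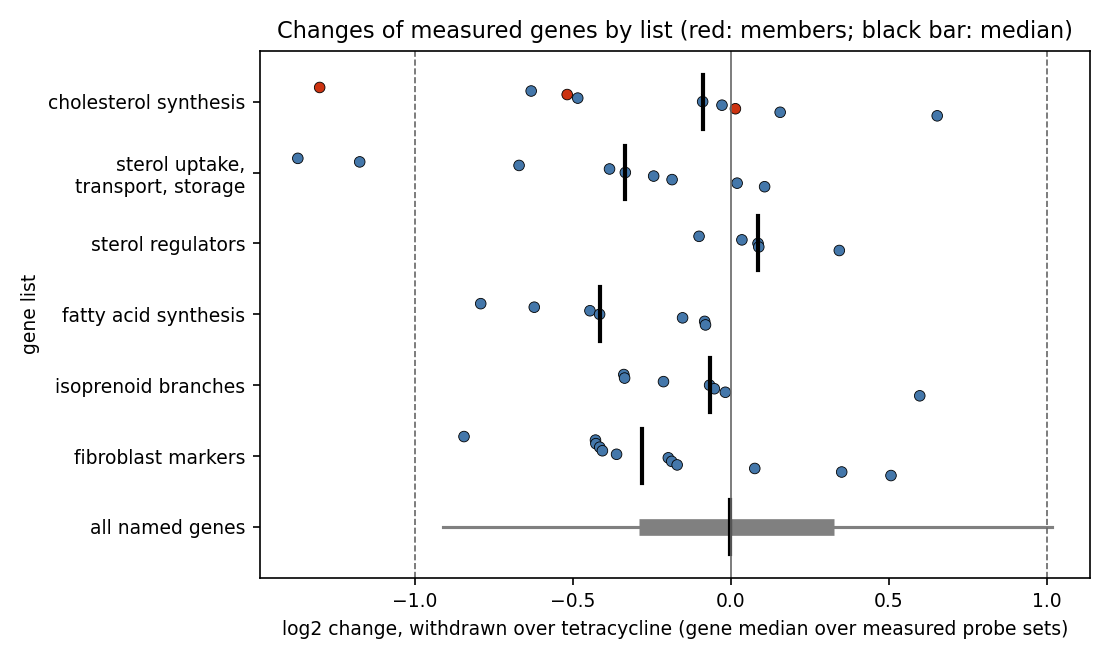
Gene log2 changes (median over measured probe sets, both array types) by list, 1 point per gene, with red points for Ebp, Fdft1 and Sqle, black bars at list medians, and for all 4507 named genes a thick bar over the middle 50% of genes and a thin line from the 5th to the 95th percentile. Medians are -0.089 for cholesterol synthesis (-0.31 with the control floor), -0.33 for uptake, transport and storage and 0.086 for regulators. For fatty acid synthesis the median is -0.41 and for isoprenoid branches -0.067 (-0.14 without Hccs).

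Fibroblast markers were present in full, with 12 of 12 genes measured. They were lower in 9 of 12 genes, against 50.4% of all genes, with a median of -0.28, against -0.0037. The gene changes ran from -0.84 to 0.51. Bright probe sets also tended to read lower: the 200 nearest in level to Vim had a median change of -0.12, where Vim itself read -0.19. For Thy1 these values were -0.12 and -0.17, and for S100a4 -0.12 and -0.84. Marker intensities were also summed, with several probe sets of a gene each counted. The sum went from 60744 to 49161 on the first type and from 194479 to 158130 on the MB type. The part of these markers in the lower lipid gene values was not tested. In RNA from whole cultures, fewer cells of a kind and less RNA per cell cannot be told apart. Markers of other cells gave mixed readings. Of 6 macrophage markers with a probe set 3 were measured, Cd14 (3222.2 to 3425.7), Lyz2 (432.7 to 562.8) and the leukocyte gene Ptprc (710.1 to 363.9), while Csf1r and Adgre1 were under the floor on both arrays and Cd68 under it with tetracycline (114.8 to 177.5). Of 6 hepatocyte markers 4 were measured, with 2 lower and 2 higher. Serpina1a was the brightest (3854.3 to 2375 and 2694.1 to 2326.5), and Alb was past 2-fold higher (259.8 to 534.3) but under the control floor with tetracycline. Of 5 adipocyte markers 2 were measured, Lipe (622.8 to 725.5) and Adipoq (475.7 to 326.7), and Fabp4 and Pparg were under the floor on both arrays. Each of these 3 lists held measured genes of both directions, and the part of other cells in the results was not tested. Eif2ak2 itself read 643.3 with tetracycline and 663.6 after withdrawal (0.045), and its mouse probe set may not detect the transgene, so it does not check the labels. Over the 4 arrays, 3' over 5' control signal, which reflects how intact the RNA is, spanned 0.93 to 1.05 (beta-actin) and 0.71 to 0.83 (Gapdh).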

How the data were processed

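The authors deposited 1 linear intensity per probe set and array, and how they made it (software, scaling, scan) is not given in the sources used here. The number of arrays limits the precision. The 2% trimmed means of the 6523 and 6534 non-control probe sets differed by less than 5% within a type (1000 and 1000.4 on the first, 997 on both MB arrays), so deposited values were used unscaled. Symbols came from the platform annotation, updated through Entrez identifiers. Of the probe sets, 5541 and 2001 had 1 symbol, 197 and 27 several, and 785 and 4506 none. RefSeq's table of GRCm38.p6 genes held 5532 and 1993 of those with 1. The files name no build.

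Members and lists were chosen with earlier results of these data known. Named were the chosen genes, Eif2ak2, the nearest patterns and, of the sterol and lipid lists, genes past 2-fold and the 2 brightest measured genes per list. Any other name was picked after its values were seen. No p-value was computed. Counting was tested on simulated data with larger changes than most seen here, in bright probe sets with less spread. That test checks the code alone. Alternatives were 4 scalings, 4 floors, 2 fold limits, single array types, and taking only a gene's brightest probe set. Tools were matplotlib 3.10.9, statsmodels 0.14.6, scipy 1.17.1, pandas 2.3.3 and numpy 2.4.6 under Python 3.11.15.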

Additional observations from a re-analysis of the deposited data

How the results depend on the processing

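Over 4 scalings Ebp ranged from -1.38 to -1.30 and Fdft1 from -0.53 to -0.51 in log2 change, and Sqle from -0.017 to 0.027, so its sign depended on the scaling. The count of 1 member probe set past the limit dropped to 0 with a 3-fold limit and stayed at 1 under the other 9 settings. The median of the synthesis list was lower than -0.089 in several settings: -0.31 with the higher floor, the control floor and the brightest probe set per gene, -0.29 with no floor, and -1.30 on the MB type alone, where Ebp is its only gene and the number lower was thus 1. Synthesis genes past the limit numbered 2 lower and 1 higher at 1.5-fold, 0 lower at 3-fold and 0 lower on the first type alone, which does not hold Ebp. Leaving Hccs out of the isoprenoid list, chosen after seeing the data, moved its median from -0.067 to -0.14. The 2 genes of the uptake, transport and storage list past 2-fold lower became 1 with the lower, higher and control floors. The median of that list stayed between -0.36 and -0.28 and the fatty acid median between -0.44 and -0.26. Counts over all probe sets moved most with the floor and the fold limit. For probe sets at least 2-fold lower on the MB type, the control floor left 21 of the 290 counted at the main floor. On the first type it left 46 of 177. No paired analysis was possible because each condition has 1 array per type. Dim probe sets, such as those of Vldlr, Apoe and Insig2, lie within the range of the control probe sets.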
